A study of Mus musculus with 4 samples.

Results

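The MEF2 transcription factors are the 4 genes Mef2a, Mef2b, Mef2c and Mef2d, which were taken by symbol from 21830 genes measured in sorted mouse retinal cells. They were chosen because Mef2c was among the largest increases in the Cd73P fraction labelled Ezh2-cKO and because Mef2d acts in photoreceptors. The Cd73P genotype ratio of Mef2c therefore selected the family and is given here as a description. All 4 genes had 1 row each and an accepted (OK) status in every library.

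Cells came from retinas of mice of the slc:ICR background at postnatal day 12, and were sorted by an antibody to Cd73, the ecto-5'-nucleotidase that Nt5e encodes and rods display, into a positive fraction (Cd73P) and a negative one (Cd73N). Each fraction was taken from wildtype retina (WT) and from retina in which floxed Ezh2, the H3K27 methyltransferase of Polycomb repressive complex PRC2, was deleted by Dkk3-Cre (Ezh2-cKO). Dkk3-Cre acts in retinal progenitors from early embryonic stages, so neurons and Müller glia of both fractions descend from targeted cells while blood vessel cells and microglia do not, and the WT animals were normal littermates. Poly(A) RNA of each of the 4 groups was sequenced as 1 library, and the number of retinas pooled for a library is not given in the sources used here. With 1 library a group there is no replicate spread and no test, and every difference below compares 2 libraries.

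MEF2 proteins are DNA-binding factors of the MADS-box class that share a conserved DNA-binding domain and bind an A/T-rich motif as dimers. Class IIa histone deacetylases and Cabin1 hold them in a repressed state, while calcium signals acting through CaM kinases and calcineurin and MAP kinases such as p38 and ERK5 (Mapk7) release or activate them, and Ep300 and related proteins serve as coactivators. In the retina, Mef2d works together with the homeobox factor Crx at photoreceptor genes, and Mef2c is also known from endothelium, microglia and some neurons. Mef2c is known to have an alternative promoter active in photoreceptors that responds to Nrl, the basic leucine zipper factor which sets rod fate.

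Levels are given as deposited FPKM, fragments per exon length and library size, and errors are standard errors (SE) from the deposited FPKM bounds, which cover counting within a library only. Ratios are differences of log2(FPKM + 1), which understates differences at low FPKM, and the terms higher and lower in counts mean at least 1.5-fold on this scale. Nt5e followed the Cd73 labels, at 0.844 FPKM in Cd73N WT, 0.609 in Cd73N Ezh2-cKO, 125 in Cd73P WT and 123 in Cd73P Ezh2-cKO. Ezh2, whose FPKM covers the whole gene and not the deleted exons alone, was lower in Cd73P with the Ezh2-cKO label (5.38 and 3.45 FPKM) but not in Cd73N (14.1 and 15.9 FPKM), so the Cd73N sample is called the library labelled Ezh2-cKO. Both WT libraries had 26.8 and 27.9 FPKM summed over 4 Y-linked genes against 0.716 and 0.496 in the Ezh2-cKO libraries. The X-linked gene Xist had 52.2 FPKM in Cd73N WT, 240 in Cd73N Ezh2-cKO, 47.0 in Cd73P WT and 95.6 in Cd73P Ezh2-cKO. The WT libraries thus held Xist beside Y-linked RNA, and genotype and the sex of the animals cannot be told apart. Depth, inferred from the bounds relative to Cd73N WT, ranged from 1 to 1.17. In sorted bulk cells, fewer cells that express a gene and less RNA per cell cannot be told apart.

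Mef2d was the most abundant MEF2 gene in all 4 libraries, and its level was higher in the rod fraction. The gene spans chromosome 3, 87946317 to 87973089 on mm9. Its FPKM was 51.7 ± 0.91 (SE) in Cd73N WT, 47.7 ± 0.81 in Cd73N Ezh2-cKO, 82.7 ± 1.05 in Cd73P WT and 95.7 ± 1.14 in Cd73P Ezh2-cKO. Each of these values lay above the upper bound deposited with it, so the SE may understate the error. Both Cd73P libraries exceeded both Cd73N libraries, and Mef2d ranked 618 of 21713 genes by FPKM in Cd73P WT against 1562 of 21713 in Cd73N WT. The Cd73P over Cd73N log2 ratio was 0.67 (95% counting interval 0.61 to 0.73) in WT and 0.99 (0.93 to 1.05) in Ezh2-cKO.

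Mef2a was the second MEF2 gene by level and differed little among the libraries. It spans chromosome 7, 74378717 to 74517744 on mm9. Its FPKM was 18.5 ± 0.47 in Cd73N WT, 15.1 ± 0.39 in Cd73N Ezh2-cKO, 21.1 ± 0.53 in Cd73P WT and 20.8 ± 0.52 in Cd73P Ezh2-cKO. The lowest library was the Cd73N library labelled Ezh2-cKO, and the other 3 lay between 18.5 and 21.1 FPKM. The values of Mef2a were also above their own upper bounds, by less than 0.01 FPKM in every library.

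Mef2c was a weakly expressed gene in 3 libraries and reached a moderate level in 1. It spans chromosome 13, 83643033 to 83806684 on mm9. Its FPKM was 1.85 ± 0.088 in Cd73N WT, 2.92 ± 0.11 in Cd73N Ezh2-cKO, 0.769 ± 0.054 in Cd73P WT and 10.3 ± 0.22 in Cd73P Ezh2-cKO. Among WT libraries the rod fraction held less Mef2c than the remaining cells, and among libraries labelled Ezh2-cKO it held more. The Cd73P Ezh2-cKO level was also 3.53-fold that of the Cd73N library labelled Ezh2-cKO, without a pseudocount, so it exceeded every other library.

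Mef2b was the least abundant member in Cd73N and was measured with the widest relative error. It spans chromosome 8, 72676677 to 72691387 on mm9. Its FPKM was 1.30 ± 0.17 in Cd73N WT, 1.06 ± 0.14 in Cd73N Ezh2-cKO, 2.89 ± 0.24 in Cd73P WT and 4.29 ± 0.29 in Cd73P Ezh2-cKO. Both Cd73P values were above both Cd73N values. GENCODE on mm9 lists transcripts of the neighbouring gene 2310045N01Rik, now named Borcs8, that run across the Mef2b locus, so reads of this gene pair may be split differently by another annotation and Mef2b is uncertain to that extent. 2310045N01Rik itself had 25.6 FPKM in Cd73N WT, 23.8 in Cd73N Ezh2-cKO, 40.98 in Cd73P WT and 29.0 in Cd73P Ezh2-cKO.

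**Figure D1:**
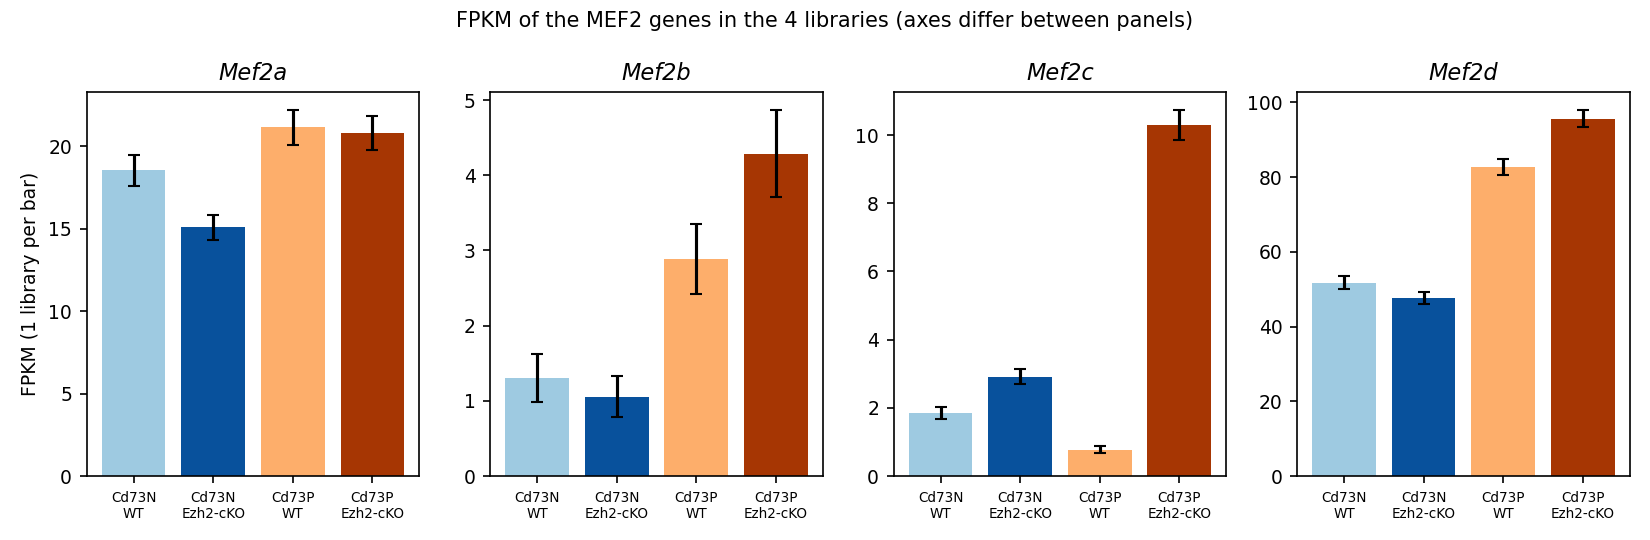
FPKM (vertical axes, which differ between panels and start at 0) of the 4 MEF2 genes in the 4 libraries, 1 library a bar, with 95% counting intervals as error bars. Mef2d and Mef2b were higher in both Cd73P libraries, Mef2a was nearly even, and Mef2c was at 10.3 FPKM in Cd73P Ezh2-cKO against 0.769 to 2.92 elsewhere.

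The order of levels within the family was Mef2d, then Mef2a, then Mef2c and Mef2b, with the last pair changing places. Mef2c was above Mef2b in both Cd73N libraries and in Cd73P Ezh2-cKO, and below it in Cd73P WT. The deposited bounds of this pair did not overlap in any library, although in Cd73N WT they nearly met at 1.63 FPKM (upper bound of Mef2b) and 1.68 FPKM (lower bound of Mef2c). Summed over the 4 genes, FPKM was 73.4 in Cd73N WT, 66.7 in Cd73N Ezh2-cKO, 107 in Cd73P WT and 131 in Cd73P Ezh2-cKO. The family sum was thus higher in the rod fraction for both labels.

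Mef2d held 70.5% of the summed FPKM in Cd73N WT, 71.4% in Cd73N Ezh2-cKO, 76.9% in Cd73P WT and 73.0% in Cd73P Ezh2-cKO. Mef2a held 25.2% and 22.6% in the Cd73N libraries and 19.7% and 15.9% in the Cd73P libraries. Mef2c made up 0.715% in Cd73P WT and 7.85% in Cd73P Ezh2-cKO, against 2.52% and 4.37% in Cd73N. Mef2b stayed between 1.58% and 3.27%. Scaling between libraries cancels in these shares, so the make-up of the family is read within a library.

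**Figure D2:**
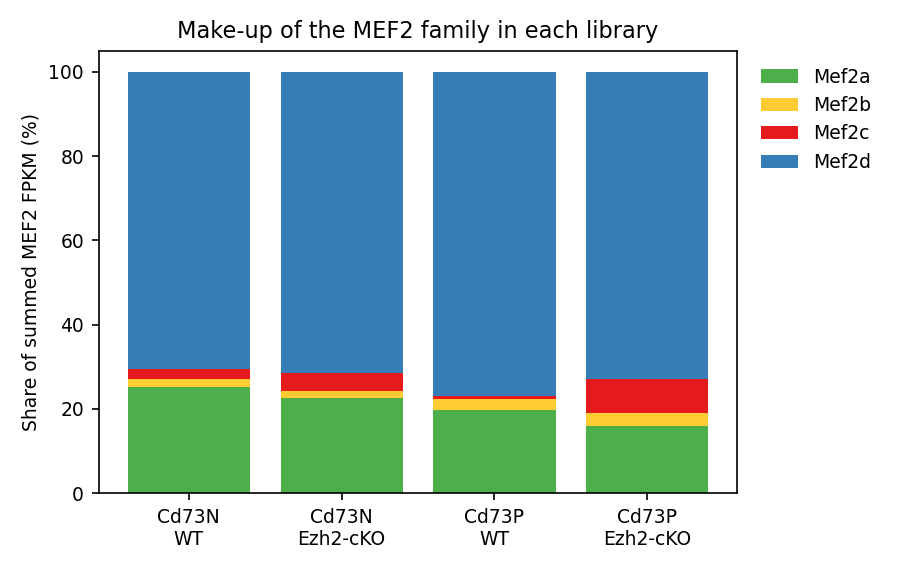
Share of the summed MEF2 FPKM (%, vertical axis) held by each gene in the 4 libraries (horizontal axis), stacked to 100%. Mef2d holds 70.5% to 76.9% of every library, and Mef2c goes from 0.715% to 7.85% between the Cd73P libraries.

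The RefSeq start sites of Mef2c are shown because the 4 tables list this gene with 1 start group, although RefSeq holds 3 separate start sites for it, so the FPKM does not tell which start was used. Each window is the 250 bases before a start on GRCm38.p6, read 5′ to 3′ on the gene's strand. The first lies at chr13:83503784-83504033, the second at chr13:83523406-83523655 and the third at chr13:83573357-83573606, all on the plus strand. The window of Mef2d, at chr3:88142122-88142371 on the plus strand, is set beside them as that of the most abundant member. Capitals mark TGCTGA, 1 arm of the palindromic element to which Nrl and other Maf factors bind.

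Mef2c start 1: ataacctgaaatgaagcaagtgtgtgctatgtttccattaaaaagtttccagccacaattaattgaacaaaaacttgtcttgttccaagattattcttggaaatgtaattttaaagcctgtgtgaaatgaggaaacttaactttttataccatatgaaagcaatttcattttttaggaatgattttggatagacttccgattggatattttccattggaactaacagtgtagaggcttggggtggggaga

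Mef2c start 2: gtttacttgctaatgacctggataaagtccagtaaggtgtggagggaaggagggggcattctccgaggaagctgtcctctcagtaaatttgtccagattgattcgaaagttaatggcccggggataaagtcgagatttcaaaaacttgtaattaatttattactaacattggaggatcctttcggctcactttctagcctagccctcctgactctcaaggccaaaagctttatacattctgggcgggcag

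Mef2c start 3: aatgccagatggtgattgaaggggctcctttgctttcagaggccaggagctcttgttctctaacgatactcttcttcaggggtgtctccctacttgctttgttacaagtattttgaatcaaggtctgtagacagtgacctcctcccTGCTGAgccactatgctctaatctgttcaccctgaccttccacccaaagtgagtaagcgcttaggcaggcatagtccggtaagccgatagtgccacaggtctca

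Mef2d start: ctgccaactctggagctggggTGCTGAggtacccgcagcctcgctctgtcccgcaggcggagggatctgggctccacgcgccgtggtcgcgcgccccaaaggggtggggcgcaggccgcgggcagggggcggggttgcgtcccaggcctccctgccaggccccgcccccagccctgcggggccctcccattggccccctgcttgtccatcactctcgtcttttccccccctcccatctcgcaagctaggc

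By exact match, each window occurs once in the mm9 genome. The first Mef2c start fell on the listed start of the locus at 83643033, the second 19622 bases and the third 69732 bases downstream, at 83662655 and 83712765. TGCTGA stood 104 to 99 bases before the third Mef2c start and 229 to 224 bases before the Mef2d start, both times on the gene's own strand. It was searched on both strands and was present in 16.1% of 32851 RefSeq windows of the same length, so a match is common. The Crx core TAATCC (6.25% of windows, both strands) and the MEF2 consensus (2.92%) were in none of the 6 windows of the 4 genes, which concerns these letters in these windows only. No searched motif overlapped another in them. The windows differed in base composition. GC content was 33.6%, 44.8% and 49.6% at the 3 Mef2c starts, with 1, 6 and 4 CpG dinucleotides, against 61.6% and 21 CpG at Mef2a, 56% and 9 at Mef2b, and 73.2% and 19 at Mef2d. The median over all windows was 52.4% and 6 CpG.

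To compare rods with the other retinal cells, the Cd73P and Cd73N fractions of WT were set side by side. Mef2d and Mef2b were higher in Cd73P and Mef2c was lower, while Mef2a differed by less than 1.5-fold. The Mef2d levels of 51.7 and 82.7 FPKM gave the log2 ratio of 0.67 stated above, and those of Mef2b, 1.30 and 2.89 FPKM, gave 0.75 (SE 0.14). Mef2c, at 1.85 and 0.769 FPKM, gave -0.69 (SE 0.063), and Mef2a gave 0.18 (SE 0.049). Over all 21703 genes, 9.07% were higher in Cd73P and 27.9% were lower, so 2 higher and 1 lower of 4 members stand beside a background in which lower levels were the more frequent. Among the 12487 genes that reached 1 FPKM in either library the median log2 ratio was -0.47, and scaling the libraries to equal medians or to equal FPKM sums moved Cd73P over Cd73N ratios up by 0.34 or 0.43. The genes higher and lower then numbered 3034 and 4743, or 3310 and 4445, against 1969 and 6055 unscaled. Under these scalings the Mef2c ratio became -0.53 or -0.49, which no longer passed 1.5-fold, and that of Mef2a became 0.50 or 0.59, the second of which just did.

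The same comparison between the libraries labelled Ezh2-cKO placed 3 members higher in Cd73P and none lower. Mef2c, at 2.92 and 10.3 FPKM, had a log2 ratio of 1.53 (SE 0.049), and Mef2b, at 1.06 and 4.29 FPKM, 1.36 (SE 0.13). Mef2d had 0.99 (SE 0.030) and Mef2a 0.44 (SE 0.049). The order of the ratios by size differed from that in WT, where Mef2c had been the member below 0. Over all 21702 genes, 8.4% were higher in Cd73P and 29.1% lower, which is 1823 and 6316 genes. Scaling to equal medians or sums (shifts of 0.27 or 0.22) made these 2629 and 5296, or 2449 and 5489, and put Mef2a past 1.5-fold as well, at 0.70 or 0.65.

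To describe the difference between the genotype labels in the rod fraction, Cd73P Ezh2-cKO was compared with Cd73P WT. Mef2c was 13.4-fold higher by FPKM alone, from 0.769 to 10.3 FPKM, and 2.67 higher on the log2(FPKM + 1) scale (95% counting interval 2.57 to 2.78). This is the ratio the family was chosen by, and nothing is read from it. It ranked 4 of 21705 genes, and 3 of the 5635 genes that reached 10 FPKM in either library, between Pcp4l1 (2.83) and Ptprn (2.64), which have 112.9 and 42.6 FPKM in Cd73P Ezh2-cKO. The other members differed much less. Mef2b was 0.44 higher (SE 0.12), Mef2d 0.21 higher (SE 0.025), and Mef2a at -0.02 (SE 0.049) differed by less than its counting error. Of all genes, 2.26% were higher and 2.38% lower at 1.5-fold, and of the members 1 was higher, which is the one that chose them, and 0 were lower.

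Between the Cd73N libraries no member differed by 1.5-fold, while over all 21704 genes 7.18% were higher and 1.71% lower. Mef2c was the member with the largest ratio, 0.46 (SE 0.059), from 1.85 to 2.92 FPKM. Without a pseudocount its fold was 1.58, so it lies close to the threshold and on which side depends on the pseudocount. Mef2a was 0.28 lower (SE 0.049), at 15.1 against 18.5 FPKM, and Mef2b had -0.16 (SE 0.14), a difference about as large as its counting error. Mef2d had -0.12 (SE 0.035), which turned to 0.03 when the libraries were scaled to the same FPKM sum, a shift of 0.15. Here the direction also rests on a sample in which Ezh2 was not lower.

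The genotype ratio in Cd73P less that in Cd73N was positive for all 4 genes: 2.22 for Mef2c (counting SE 0.079), 0.61 for Mef2b (SE 0.19), 0.32 for Mef2d (SE 0.043) and 0.26 for Mef2a (SE 0.069). The Mef2c value includes the ratio used to choose it. The values of Mef2b and Mef2d exceeded 97.3% and 90.2% of 21691 genes, and that of Mef2a 86.7%. They depend on scaling. With libraries scaled to the same FPKM sum, the Cd73P and Cd73N ratios were -0.08 and -0.14 for Mef2a, and 0.15 and 0.03 for Mef2d. With 1 library in each group these differences could not be tested against any spread between animals.

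**Figure D3:**
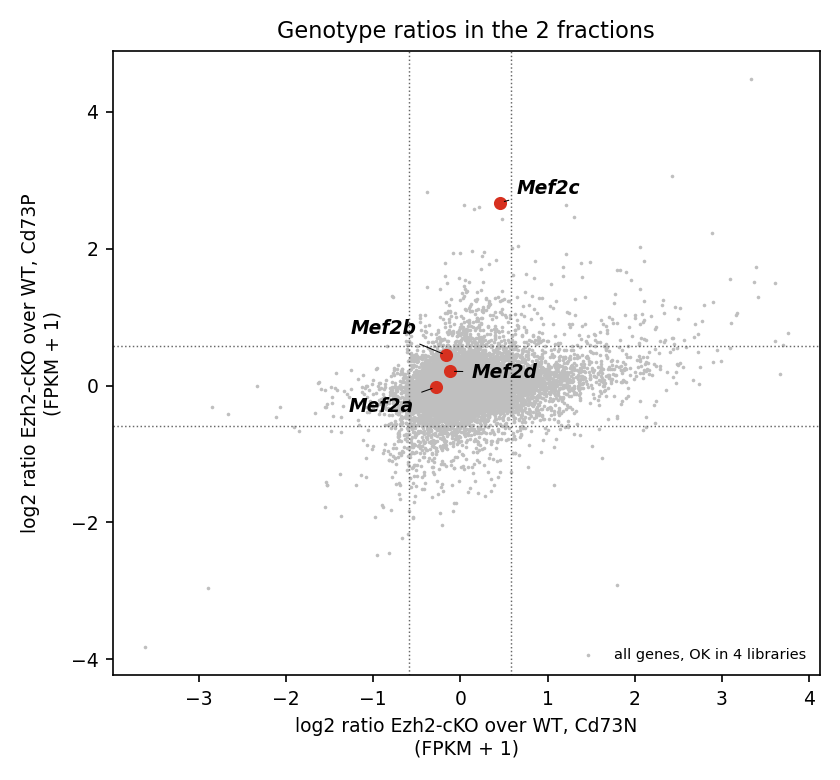
Log2 ratio of Ezh2-cKO over WT in Cd73N (horizontal axis) and Cd73P (vertical axis), on FPKM + 1, for all genes with OK status in 4 libraries (grey) and the 4 MEF2 genes (red), with dotted lines at 1.5-fold. Mef2c stands at 0.46 and 2.67, while the other 3 genes lie inside the 1.5-fold lines of both axes.

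Markers of the other retinal cell types moved between the Cd73P libraries as well, and their part in the Mef2c level was not tested. Over all genes, 2.26% were higher and 2.38% lower at 1.5-fold in Cd73P, and 7.18% and 1.71% in Cd73N. Müller glia markers were higher in Cd73P Ezh2-cKO for 7 of 10 genes and summed to 93.3 FPKM in WT and 211 in Ezh2-cKO, with none at 0. In Cd73N the same list was higher for 10 of 10 and summed to 1031 and 5389 FPKM, beside Mef2c levels of 1.85 and 2.92 FPKM. Of 10 endothelial markers, 1 was higher (Kdr) and 1 lower (Cldn5) in Cd73P, with sums of 10.3 and 8.69 FPKM in Cd73P and 62.1 and 130.4 in Cd73N. In Cd73N, 2 of the 10 were higher (Kdr and Flt1) and 1 lower (Esam), with a median log2 ratio of 0.09. Kdr made up much of the sums there, at 22.6 and 86.2 FPKM, while Esam had 23.9 and 13.3. Pericyte markers summed to 7.71 and 4.09 FPKM in Cd73P, with 1 of 7 lower, and to 260.1 and 295 in Cd73N. Microglia markers summed to 22.4 and 29.4 FPKM in Cd73P, with 0 of 9 past 1.5-fold, and to 106 and 156 in Cd73N. In Cd73N, 4 of these 9 were higher and 0 lower, with a median log2 ratio of 0.53.

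Markers of the other neurons summed to lower levels in Cd73P Ezh2-cKO than in Cd73P WT, for each of the 5 lists. Bipolar markers were lower for 8 of 11 and summed to 187 FPKM in WT and 63.6 in Ezh2-cKO, and cone markers were lower for 8 of 9, at 421 and 200.0 FPKM. The bipolar marker Prkca differed little between fractions, at 26.8 and 29.7 FPKM in Cd73P and 28.5 and 24.6 in Cd73N. Amacrine markers summed to 29.0 and 24.7 FPKM over 7 measured genes, 1 of them lower and 0 higher. Slc6a9 made up most of these sums, at 24.1 and 21.4 FPKM, and had less in Cd73N, at 6.46 and 8.96. Ganglion cell markers summed to 3.90 and 2.17 FPKM with 1 of 9 lower and Pou4f2 at 0 in Cd73P WT, and horizontal cell markers to 4.72 and 1.54 with 1 of 6 lower. That 1 gene, Prox1, made up most of the horizontal cell sum, at 4.33 and 1.10 FPKM in Cd73P and 92.7 and 61.9 in Cd73N, and the list median log2 ratio in Cd73P was -0.00073. Rod markers, by contrast, were higher for 2 of 10 (Gnat1 and Pde6a) and lower for none, with sums of 16731 and 22774 FPKM. In Cd73N, the sums in WT and Ezh2-cKO were 2146 and 1208 FPKM for bipolar, 4704 and 6062 for cone, 29.6 and 76.8 for amacrine, 17.4 and 43.5 for ganglion cell, 94.0 and 63.8 for horizontal and 1237 and 1258 for the same 10 rod markers. Pax6 made up most of the amacrine sums in Cd73N, at 20.4 and 63.5 FPKM, with 2 of 7 markers higher and 0 lower. Thy1 was the largest part of the ganglion cell sums there, at 6.52 and 30.3 FPKM, with 2 of 9 markers higher and 1 lower.

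The upstream photoreceptor factors were at high levels in Cd73P. Nrl had 27.7 FPKM in Cd73N WT, 11.02 in Cd73N Ezh2-cKO, 1377 in Cd73P WT and 1615 in Cd73P Ezh2-cKO. Crx, the partner of Mef2d, had 254 and 215 FPKM in Cd73N and 1038 and 909 in Cd73P, and the rod nuclear receptor Nr2e3 16.8 and 5.09 in Cd73N and 1392 and 1117 in Cd73P. Whether Nrl had a part in the Mef2c level was not tested. Of the 10 factors of this list, 9 were higher in Cd73P than in Cd73N in WT and 8 in Ezh2-cKO, with median log2 ratios of 2.36 and 2.17, and 0 were lower. The shares of all genes higher in Cd73P were 9.07% in WT and 8.4% in Ezh2-cKO, and those lower were 27.9% and 29.1%. Between genotypes in Cd73P, 1 of 10 was higher (Esrrb, an orphan nuclear receptor of rods, from 124 to 210 FPKM), 0 were lower and the median log2 ratio was -0.17. In Cd73N 1 was higher (Rax) and 4 were lower (Nrl, Nr2e3, Otx2 and Esrrb) with the same median, -0.17, beside a median of 0 over all genes in both fractions. The shares of all genes higher and lower between genotypes were 2.26% and 2.38% in Cd73P, and 7.18% and 1.71% in Cd73N.

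The repressors that bind MEF2 proteins were measured at moderate to low levels. Hdac5 had 27.6 and 23.0 FPKM in Cd73N WT and Ezh2-cKO and 26.3 and 28.7 in Cd73P WT and Ezh2-cKO. Hdac9 had 12.98 and 9.30 FPKM in Cd73N and 8.09 and 11.4 in Cd73P, and Cabin1 had 4.57 and 5.52 in Cd73N and 11.4 and 11.6 in Cd73P. None of the 5 repressors differed by 1.5-fold between the Cd73P genotypes (median log2 ratio 0.12). In Cd73N, 1 of 5 was higher with the Ezh2-cKO label, Hdac7, at 6.82 and 12.4 FPKM, and 0 were lower (median 0.20). Between fractions, Cabin1 was higher and Hdac7 and Hdac9 were lower in Cd73P in WT, and Cabin1 and Hdac4 were higher and Hdac7 lower in Ezh2-cKO. Of all genes, 2.26% were higher and 2.38% lower between genotypes in Cd73P, and 7.18% and 1.71% in Cd73N. Between fractions these shares were 9.07% higher and 27.9% lower in Cd73P in WT, and 8.4% and 29.1% in Ezh2-cKO.

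Kinases and calcineurin subunits, which relay calcium and stress signals to MEF2 proteins, were also largely even between genotypes. In Cd73P, 1 of 17 was lower in Ezh2-cKO (Camk2b, a CaM kinase II subunit, from 7.41 to 4.05 FPKM), 0 were higher and the median log2 ratio was -0.09. In Cd73N, 1 of 17 was higher (Prkd1, protein kinase D, from 5.04 to 8.37 FPKM) and 0 lower (median -0.06). The calcineurin catalytic subunit Ppp3cc was the clearest difference between fractions among the 3 most abundant, with 20.2 and 19.6 FPKM in Cd73N against 114 and 125 in Cd73P. Its regulatory subunit Ppp3r1 had 86.7 and 74.5 FPKM in Cd73N and 99.8 and 98.9 in Cd73P, and Camk2d had 44.2 and 44.2 in Cd73N and 64.5 and 60.4 in Cd73P. Over the list, 3 genes (Ppp3cc, Mapk11 and Prkd1) were higher and 7 lower in Cd73P in WT, and 2 (Ppp3cc and Mapk11) higher and 7 lower in Ezh2-cKO. The 7 lower genes in WT were Camk2b, Camk1, Camk4, Mapk7, Mapk12, Map2k5 and Cdk5. The log2 ratios of Camk2b (-3.47), Camk1 (-3.06) and Camk4 (-2.93) in WT were larger in size than that of Ppp3cc (2.43). Of all genes, 9.07% were higher and 27.9% lower in WT, and 8.4% and 29.1% in Ezh2-cKO.

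The coactivators included genes with higher levels in the rod fraction and none with lower ones at 1.5-fold. Ncoa2, a p160 coactivator, had 13.7 and 13.02 FPKM in Cd73N WT and Ezh2-cKO and 68.3 and 55.2 in Cd73P. The acetyltransferase Ep300 had 7.89 and 8.59 FPKM in Cd73N and 22.2 and 19.9 in Cd73P, whereas the arginine methyltransferase Carm1 stayed between 8.80 and 9.62 in all libraries. Of 5 coactivators, 3 were higher in Cd73P in WT (Ncoa2, Ep300 and Crebbp, list median log2 ratio 0.76) and 2 in Ezh2-cKO (Ncoa2 and Ep300, median 0.51), and 0 were lower. Among all genes in WT, the 1.5-fold mark was passed upward in the rod fraction by 9.07% and downward by 27.9%. With the Ezh2-cKO label, 8.4% went up and 29.1% down. Between genotypes 0 of 5 differed by 1.5-fold in either fraction, with medians of -0.11 in Cd73P and 0.11 in Cd73N. Genotype differences of that size were upward for 2.26% and downward for 2.38% of genes in the rod fraction. The Cd73N shares were 7.18% upward and 1.71% downward.

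Genes known as MEF2 targets in neurons and stimulated cells included none that was higher in Cd73P Ezh2-cKO, where 2.26% of all genes were higher. Jun, an immediate early factor, had 20.4 FPKM in Cd73N WT, 90.6 in Cd73N Ezh2-cKO, 26.6 in Cd73P WT and 16.6 in Cd73P Ezh2-cKO. The orphan receptor gene Nr4a1 had 25.2 and 35.4 FPKM in Cd73N and 15.96 and 20.4 in Cd73P, and the synaptic scaffold gene Homer1 7.31 and 6.66 in Cd73N and 7.92 and 9.72 in Cd73P. Of 8 measured targets, Jun was lower in Cd73P Ezh2-cKO, 0 were higher and the median log2 ratio was 0.11. In Cd73N, 3 were higher (Jun, Arc and Klf4), 0 lower and the median was 0.38. Of all genes, 2.38% were lower in Cd73P, and 7.18% were higher and 1.71% lower in Cd73N. Jun and Arc are induced by stimulation and stress in many cells, so they are not specific to MEF2.

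Muscle genes under MEF2 control elsewhere were below 1 FPKM in Cd73P, except Ckm, a creatine kinase gene, at 1.17 and 1.27 FPKM there and 1.26 and 0.804 in Cd73N. Cardiac actin Actc1 had 20.9 and 7.69 FPKM in Cd73N and 0.547 and 0.470 in Cd73P, and troponin C Tnnc1 had 20.1 and 5.84 in Cd73N and 0.609 and 0.673 in Cd73P. Desmin (Des) had 4.84 and 4.40 FPKM in Cd73N and less than 0.1 in Cd73P. Of 10 muscle genes, 0 differed by 1.5-fold between the Cd73P genotypes (median 0.03), and 2, Actc1 and Tnnc1, were lower in Cd73N with the Ezh2-cKO label (median -0.13). Srf, the other branch of mammalian MADS-box factors, was even, at 10.46 and 9.83 FPKM in Cd73N and 13.3 and 11.8 in Cd73P. Its ternary complex partners Elk1 and Elk4 had 17.9 and 13.04, and 3.23 and 3.40 FPKM, in Cd73N, and 10.9 and 8.94, and 8.40 and 7.33, in Cd73P. Of the 7 genes of this branch, 0 differed by 1.5-fold between the Cd73P genotypes (median -0.16) and 1 was higher (Elk3) in Cd73N (median -0.06).

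**Figure D4:**
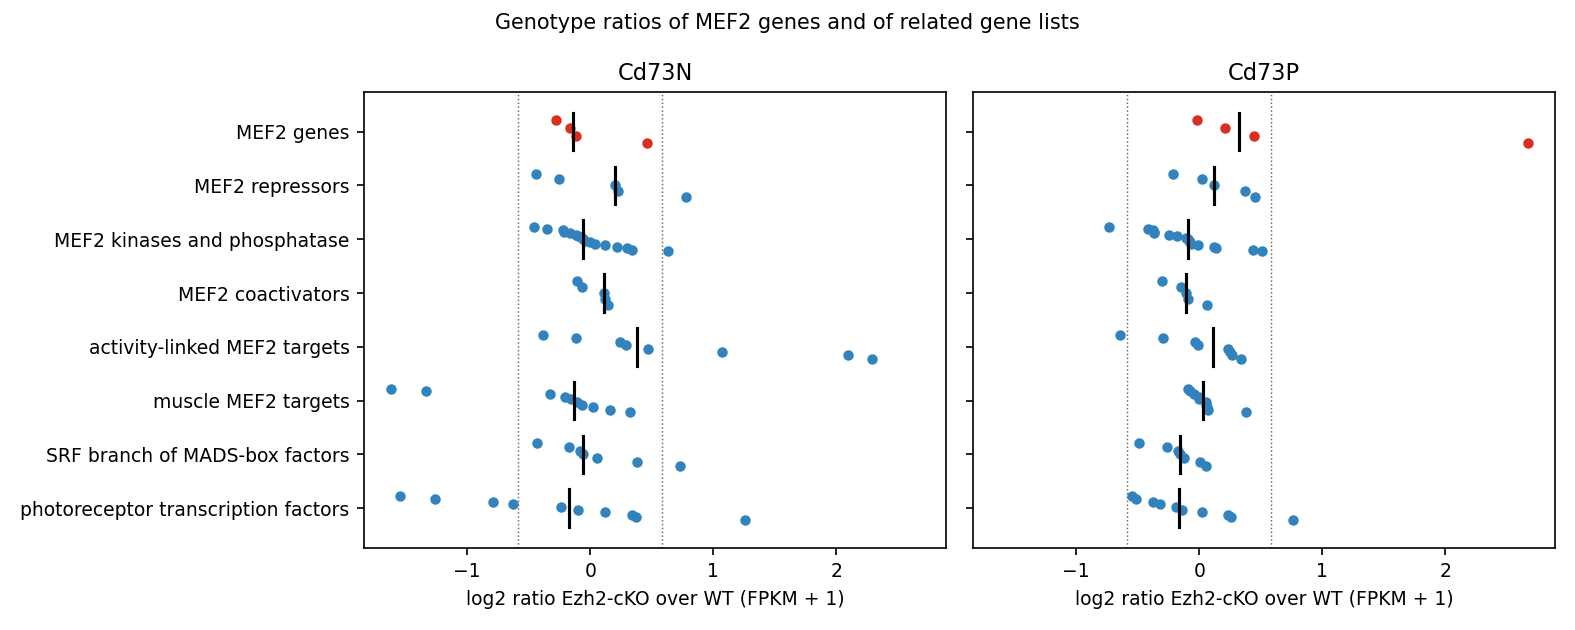
Log2 ratio of Ezh2-cKO over WT (FPKM + 1, horizontal axis, the same in both panels) for the MEF2 genes (red) and for genes of 7 related lists (blue, 1 point a gene), with the median of each list as a black bar and dotted lines at 1.5-fold. In Cd73P the list genes past the lines are Camk2b, Jun and Esrrb, while in Cd73N more list genes lie outside them.

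The genes next to the members on the chromosomes were examined for a shared difference. C130071C03Rik, a long noncoding RNA gene 61027 bases beyond Mef2c, had 1.04 and 1.63 FPKM in Cd73N WT and Ezh2-cKO and 0.336 and 0.325 in Cd73P. It followed the order of Mef2c in the first 3 libraries but not in Cd73P Ezh2-cKO, where its log2 ratio to WT was -0.01. On the other side the nearest listed gene, the centrin gene Cetn3, was 1706877 bases away and had 122 and 112 FPKM in Cd73N and 76.5 and 63.0 in Cd73P. No listed gene overlapped a member. The neighbours of the other members, Lysmd4 and Lrrc28 at Mef2a, 2310045N01Rik and Tmem161a at Mef2b, and Iqgap3 and Rhbg at Mef2d, had Cd73P genotype ratios between -0.48 and 0.15 and were all within 1.5-fold.

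Likeness of profile was measured as the Euclidean distance between log2(FPKM + 1) values centred on each gene's mean over the 4 libraries, among 7600 genes. With 4 libraries many genes can lie close by, and the Mef2c profile includes the difference that chose it. Gm10664, a processed transcript, was nearest to Mef2c (distance 0.36, against a median of 2.25 over all candidates). Its FPKM was 2.99 and 4.56 in Cd73N WT and Ezh2-cKO, and 1.18 and 10.8 in Cd73P. Krt18, a keratin gene (distance 0.91), had 63.0 and 73.2 FPKM in Cd73N and 19.1 and 121.6 in Cd73P. The transcribed pseudogene Olfr1372-ps1 (distance 0.91), whose reads may be shared with related receptor genes, had 4.22 and 11.9 FPKM in Cd73N and 1.95 and 15.2 in Cd73P. All had their lowest level in Cd73P WT and their highest in Cd73P Ezh2-cKO, as Mef2c did, and they were picked for a profile near that of Mef2c.

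**Figure D5:**
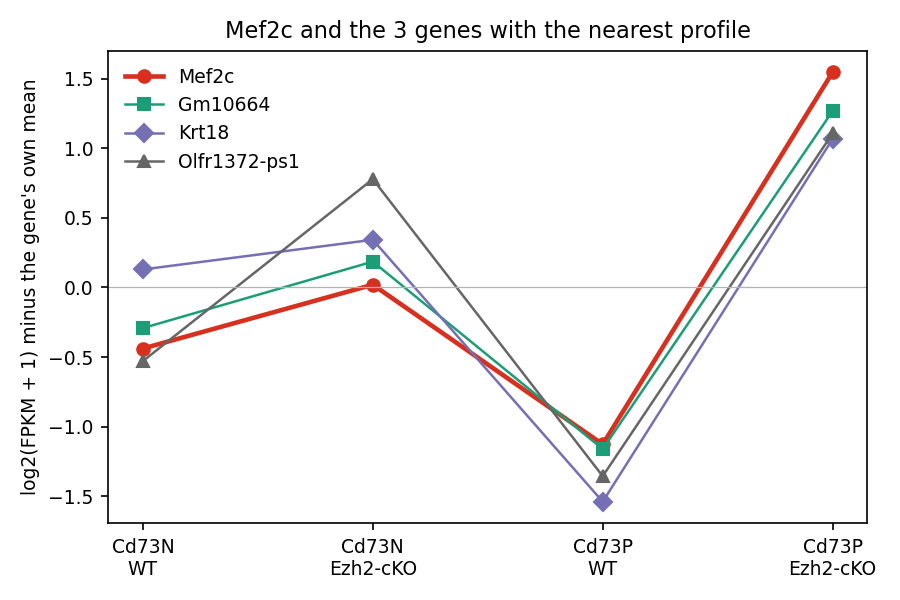
Log2(FPKM + 1) less the gene's own mean (vertical axis) in the 4 libraries (horizontal axis) for Mef2c and the 3 genes of nearest profile. All 4 lines are lowest in Cd73P WT and highest in Cd73P Ezh2-cKO, and Gm10664 stays closest to Mef2c (distance 0.36).

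The profiles of Mef2a and Mef2d were nearly matched by other genes. Nearest to Mef2a were Eapp (distance 0.010), Nfya (0.040) and Snrnp27 (0.044), against a median distance of 0.9996. Nearest to Mef2d were 1700020I14Rik (0.035), P4htm (0.036) and Ezh1 (0.068), against a median of 1.40. Ezh1, the paralogue of Ezh2 in PRC2, had 7.34 and 6.73 FPKM in Cd73N WT and Ezh2-cKO and 11.7 and 14.7 in Cd73P. The nearest genes lay closer to these 2 members than Gm10664 did to Mef2c. As the Mef2c profile holds the difference that chose it, nothing is read from this. Mef2b did not reach 10 FPKM in any library and was not searched.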

How the data were processed

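RNA-seq was made of 4 libraries, 1 for each combination of Cd73 fraction and genotype, grouped by their titles. Per the submitters' processing notes, reads were converted with bcl2fastq 1.8.4. The authors aligned single-end reads of 36 bases with TopHat 2.0.8b to mm9 (coverage search, up to 50 hits a read) and quantified RefSeq genes with Cufflinks 2.1.1. Each deposited table gives 23021 rows with FPKM, its bounds on both sides and a status. Total reads are not in the tables, so absolute depth is unknown, and whether the libraries kept strand is not given in the sources used here.

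FPKM was added up over rows of the same symbol (631 rows, 234 symbols), and after removal of 728 small RNA symbols 21830 genes remained. A comparison used genes with OK status in both of its libraries. FPKM was not scaled. Ratios were differences of log2(FPKM + 1), with a 1.5-fold threshold, the study's. The bounds were taken as 4 SE wide. No p-value was computed. The ratio and counting steps were checked on simulated data. Python 3.11.15, numpy 2.4.6, pandas 2.3.3 and matplotlib 3.10.9 were used.

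The members and gene lists were chosen with earlier results of these data known. Genes named were the members, Ezh2, Nt5e and Xist, the 3 of highest mean FPKM in each related list and the nearest listed genes on each side. The genes ranked next to Mef2c and the 3 single-row genes of nearest profile (FPKM of at least 10 in 1 library) were also named. Genes named because few of a list passed the threshold were chosen after their values were seen. Tfap2a and Tfap2b were not matched, and some genes are not reported here. Promoter windows came from RefSeq (GRCm38.p6), and mm9 positions are those of the tables with 1 added to the start. Alternatives were pseudocounts of 0.1 and 5, no pseudocount, scaling by the median ratio or the FPKM sum, a 2-fold threshold and a minimum FPKM of 1.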

Additional observations from a re-analysis of the deposited data

Results flagged for a closer look

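Several genes had genotype log2 ratios of opposite sign in the Cd73N and Cd73P fractions, with 1 library a group, so none of these differences was tested. The difference is given as Cd73P minus Cd73N. Of the members, it was 0.61 for Mef2b (-0.16 and 0.44 in Cd73N and Cd73P) and 0.32 for Mef2d (-0.12 and 0.21). The Cd73N ratio of Mef2b was about as large as its counting error, and that of Mef2d turned positive (0.03) under scaling to the same FPKM sum. For Mef2c it was the ratio between fractions that changed sign, from -0.69 in WT to 1.53 in Ezh2-cKO, a difference of 2.22 that contains the ratio used to choose the gene.

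Among the related genes, only the 3 most abundant of each list were screened, and of these Jun had the largest such difference in size, -2.74 (2.096 in Cd73N and -0.65 in Cd73P). It was 1.68 for Tnnc1, whose Cd73P levels were below 1 FPKM, and 1.49 for Nrl (-1.26 and 0.23). The MEF2 repressors Hdac9 and Hdac5 had differences of 0.89 (-0.44 and 0.45) and 0.37 (-0.25 and 0.12), and Homer1 had 0.38. Smaller differences were found for Ep300 (-0.26), Elk4 (-0.23), Ppp3cc (0.18) and Camk2d (-0.095). Outside the screen, Esrrb (-0.63 in Cd73N and 0.76 in Cd73P), Klf4 (1.07 and -0.03) and Hdac7 (0.78 and -0.22) were among the genes that also had ratios of opposite sign.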

How the results depend on the processing

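No member ratio changed sign where it passed 1.5-fold. Of the recomputed member ratios, 46 stayed within the 95% counting interval of the reported value and 34 did not. The Mef2c genotype ratio was 3.58, 1.41 and 3.74 in Cd73P, and 0.63, 0.21 and 0.66 in Cd73N, with a pseudocount of 0.1, of 5 and with none, against 2.67 and 0.46. In Cd73N it passed 1.5-fold with 0.1 and with none, so 1 member was then higher in place of 0. Of Cd73P over Cd73N in WT, 1 member was higher with a pseudocount of 5 and 0 at 2-fold, and 0 were lower with a pseudocount of 5, under either scaling and at 2-fold. Over all genes, the counts higher and lower between genotypes in Cd73P were 1430 and 1712 with a pseudocount of 0.1, 182 and 131 with 5, and 162 and 144 at 2-fold, against 491 and 517. In Cd73N they were 3255 and 766, 620 and 177, and 644 and 71, against 1559 and 371, with 198 lower under sum scaling. Between fractions in WT, 1230 were higher and 3976 lower with a pseudocount of 5, 4031 lower without one, 3034 higher under median and 3310 under sum scaling, and 1074 higher and 3832 lower at 2-fold, against 1969 and 6055. In Ezh2-cKO, 4070 were lower with 5, 3610 without a pseudocount, and 1047 higher and 4155 lower at 2-fold, against 1823 and 6316. The cause of these shifts was not tested. With a pseudocount of 5, Gm10664 was still nearest to Mef2c, followed by Tmlhe and Hist1h2bj. No paired analysis was possible because each group held 1 library. Differences between animals or sorts cannot be estimated, and for genes at about 1 FPKM, such as Mef2b, counting error alone limits a ratio.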
